A study of Mus musculus with 6 samples.

Results

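In brown fat, a tissue that burns fuel to make heat, 10 genes of the hypoxia response were followed after treatment with ginsenoside Rb2, a saponin of ginseng. They are Hif1a, Epas1 and Hif3a, which encode the alpha subunits of the hypoxia-inducible factors, the prolyl hydroxylase genes Egln1 and Egln3, and 5 targets of the factors, Ankrd37, Vegfa, Adm, Car9 and Ndrg1. All 10 were matched by gene symbol among the 45777 genes of the deposited count table. The set was selected on the measured difference of Ankrd37 between the Rb2 and PBS libraries, to which known relatives of the pathway were added, so the values of all 10 in that contrast are given as a description, without a p-value. The libraries came from male wild-type C57Bl6/J mice that received PBS (phosphate-buffered saline) or Rb2 by intraperitoneal injection over 2 weeks, 3 mice per group. The sources used here give no dose, age, housing temperature or hour of tissue collection. The libraries are named PBS 1, 2 and 4 and Rb2 1, 3 and 4, after the numbers of the table's columns.

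Hypoxia-inducible factors are dimers of a regulated alpha subunit and a stable partner, ARNT. When oxygen is present, prolyl hydroxylases of the EGLN family mark the alpha subunit, the VHL ubiquitin ligase binds it, and it is degraded. When oxygen is low the alpha subunit accumulates, and the dimer binds short DNA elements with the core ACGTG or GCGTG at genes of glycolysis, vessel growth, mitophagy and pH control. The control acts mainly on the protein, so the mRNA of an alpha subunit does not report the activity of the factor. In brown fat, Vegfa sustains the dense capillary bed and is also driven by other routes, including the coactivator PGC-1 alpha.

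Of these genes, 2 passed the threshold of the test, Ankrd37 and Vegfa, in the contrast that chose the set, which is a description only. Their promoter windows are shown with those of Egln3, a hydroxylase gene that is itself a hypoxia target, and of Hif1a. Each is the 250 bases before a RefSeq transcription start (GRCm38.p6), read 5′ to 3′ on the strand of the gene, with ACGTG or GCGTG on either strand in capitals.
Ankrd37 (chr8:45999851-46000100, minus strand): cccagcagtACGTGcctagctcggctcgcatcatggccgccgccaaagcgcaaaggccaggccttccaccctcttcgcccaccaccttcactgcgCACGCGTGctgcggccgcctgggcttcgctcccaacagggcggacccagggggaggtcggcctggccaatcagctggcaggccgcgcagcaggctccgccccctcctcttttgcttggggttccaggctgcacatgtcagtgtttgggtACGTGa
Vegfa (chr17:46032378-46032627, minus strand): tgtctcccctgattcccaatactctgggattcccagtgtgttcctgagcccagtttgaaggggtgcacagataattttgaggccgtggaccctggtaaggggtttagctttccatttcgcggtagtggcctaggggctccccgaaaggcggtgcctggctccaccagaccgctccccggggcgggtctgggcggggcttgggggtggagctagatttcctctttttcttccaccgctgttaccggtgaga
Egln3 (chr12:54203875-54204124, minus strand): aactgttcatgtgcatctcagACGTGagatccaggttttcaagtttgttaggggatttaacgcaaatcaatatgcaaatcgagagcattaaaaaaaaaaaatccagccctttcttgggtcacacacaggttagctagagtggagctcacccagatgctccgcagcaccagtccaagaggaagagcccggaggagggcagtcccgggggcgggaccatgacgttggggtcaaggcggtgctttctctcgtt
Hif1a (chr12:73907617-73907866, plus strand): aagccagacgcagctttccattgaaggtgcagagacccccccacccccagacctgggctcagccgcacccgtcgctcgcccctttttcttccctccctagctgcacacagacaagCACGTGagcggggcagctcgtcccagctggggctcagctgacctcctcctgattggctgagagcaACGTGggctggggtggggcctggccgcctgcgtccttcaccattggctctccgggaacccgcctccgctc
The Ankrd37 window held 4 matches, starting 241, 155, 152 and 6 bases before the start, and those at 155 and 152 overlap as CACGCGTG. That start is the downstream one of the gene, whose annotated span reaches further up. The Vegfa window at the main start held no match, and the window at a second, internal start of Vegfa held 2. Egln3 had 1 match, 229 bases before its start. Hif1a had 3, of which those at 135 and 134 are the 2 strands of 1 CACGTG, the palindrome that clock and MYC-family factors also bind. The Hif1a window lies inside the annotated span of the gene. Of 32851 windows of this length, 38.6% held ACGTG or GCGTG, 16.6% held ACGTG and 6.02% held CACGTG. The windows available for 8 of the 10 genes numbered 9, of which 8 held ACGTG or GCGTG. These include the internal Vegfa window and not that at its main start. The genes were picked as members of this pathway, so nothing is read from that count. These matches are descriptions of the letters in the window, and binding was not measured.

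The total counts of the libraries ran from 83642183 to 92666780, and 16707 genes entered the test, 9 of the 10 among them. Levels are counts scaled to TMM-normalised library sizes (CPM). In the edgeR quasi-likelihood test 10.4% of tested genes passed an adjusted p (Benjamini-Hochberg) of 0.05, 890 higher and 853 lower after Rb2. With library size alone as scaling the split was 492 higher and 779 lower, and with the GC content and length of transcripts taken into an offset it was 812 and 498. The tissue label fits its markers: all 10 brown adipocyte markers were tested, and Ucp1, the uncoupling protein of brown fat, ran from 2928 to 4770 CPM. Of the 10, Elovl3 (log2 fold change -1.74, adjusted p = 0.0214) and Prdm16 (-1.13, adjusted p = 0.00584) fell and Ppara (0.75, adjusted p = 0.0369) rose, in edgeR. Skeletal muscle transcripts differed widely, with 12 markers summing to 2479, 7362 and 67.6 CPM in PBS 1, 2 and 4 and to 50.4, 498 and 324 CPM in Rb2 1, 3 and 4. Across tested genes the Pearson r of log2 levels between PBS 4 and Rb2 1, 3 and 4 was 0.978, 0.980 and 0.984, and that between PBS 4 and PBS 1 and 2 was 0.979 and 0.968.

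The genes did not move together. Ankrd37 was 12.4-fold lower after Rb2 and Vegfa 2.03-fold higher. These were the 2 of 9 tested genes past the threshold, 1 in each direction, beside 5.33% of all tested genes called higher and 5.11% called lower. Since this contrast chose the set, nothing is read from that count. Of the 9, 4 had a positive and 5 a negative log2 fold change, with a median of -0.22, beside -0.01 over all tested genes. The libraries of the 2 groups did not overlap for 4 of them, Vegfa upward and Ankrd37, Epas1 and Hif3a downward, where 35.8% of all tested genes did not overlap.

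**Figure D1:**
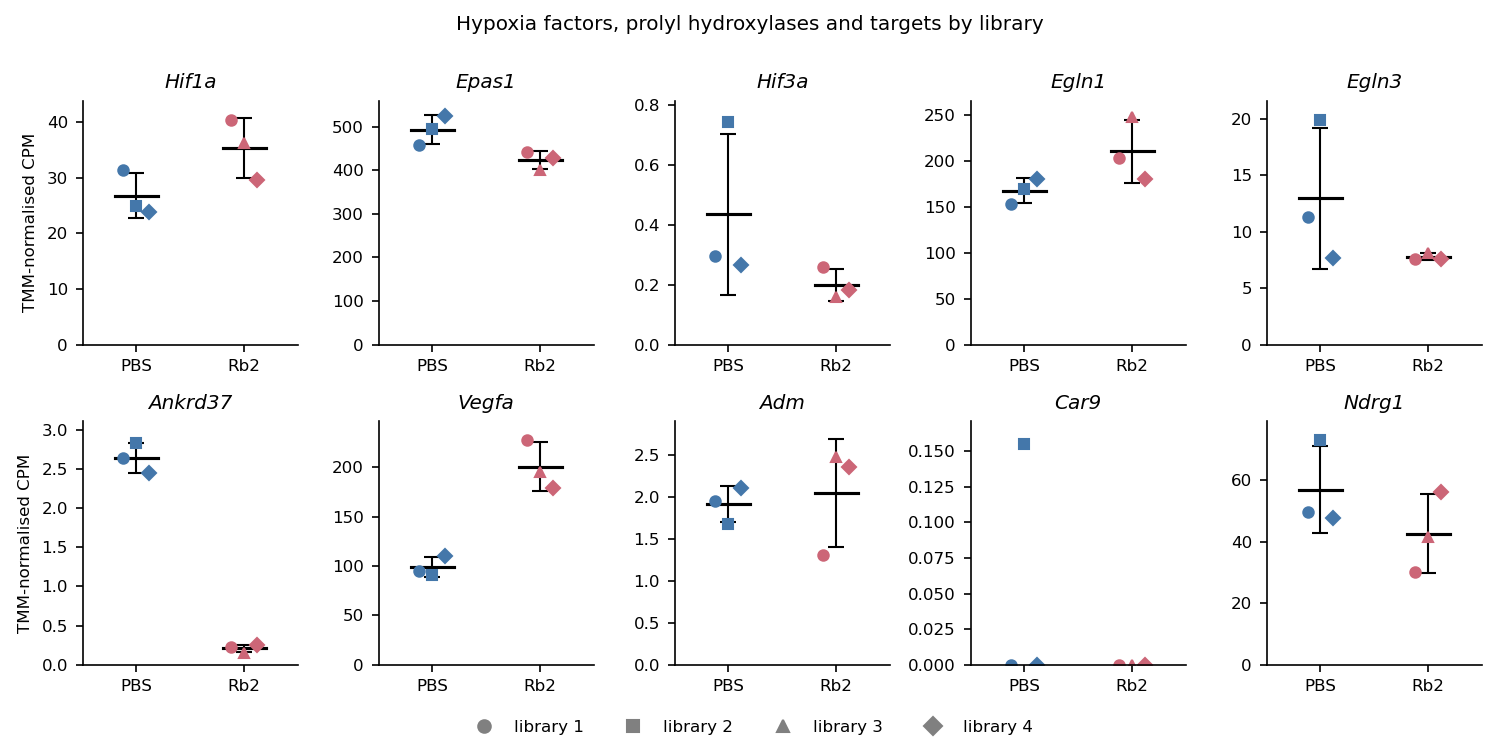
TMM-normalised CPM of the 10 genes in each of the 6 libraries, with the y axis starting at 0 and scaled for each gene; symbols mark the library number, and black bars give the mean and SD of 3 libraries per group (not drawn for Car9, which was detected in 1 library). Ankrd37 lies between 2.44 and 2.82 CPM with PBS and between 0.158 and 0.249 CPM with Rb2, and Vegfa between 91.3 and 110 CPM and between 179 and 228 CPM.

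Of the factors, Epas1, which encodes HIF-2 alpha and is strong in endothelial cells and adipocytes (chromosome 17, 86753864 to 86833410), was the most abundant. Per kilobase of the longest GENCODE transcript its level was 89.3 ± 6.05 CPM with PBS and 76.8 ± 3.82 CPM with Rb2 (SD, n = 3). That of Hif1a, encoding HIF-1 alpha (chromosome 12, 73901324 to 73947554), was 5.67 ± 0.859 and 7.49 ± 1.15 CPM per kilobase. Hif3a, whose product includes short inhibitory forms (chromosome 7, 17030993 to 17062427), was at 0.0680 ± 0.0419 and 0.0313 ± 0.00829 CPM per kilobase. This order, Epas1 above Hif1a above Hif3a, held in each of the 6 libraries without overlap.

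Hif1a was at 31.4, 25.0 and 23.9 CPM in PBS 1, 2 and 4 and at 40.4, 36.2 and 29.6 CPM in Rb2 1, 3 and 4. Rb2 4 lay below PBS 1, so the groups overlapped, and the log2 fold change was 0.40 ± 0.16 (SE). Epas1 was at 458, 495 and 525 CPM with PBS and at 443, 401 and 427 CPM with Rb2. All Rb2 libraries were below all PBS libraries, by a small step (log2 fold change -0.22 ± 0.14 SE). Endothelial cells, a main site of Epas1, are also part of this tissue. Of 14 endothelial markers 7 passed the threshold downward, where 5.11% of all tested genes did. Their sum ran from 1921 to 2177 CPM with PBS and from 1080 to 1577 CPM with Rb2. Fewer cells of a type and less RNA per cell cannot be told apart in bulk tissue, and the part of endothelial RNA in the Epas1 values was not tested.

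Hif3a rested on few reads, 24, 72 and 26 with PBS and 22, 13 and 17 with Rb2. In CPM these were 0.296, 0.745 and 0.266 against 0.260, 0.158 and 0.184. PBS 2 stood apart from the other 5 libraries, and PBS 4 was nearly level with Rb2 1. The log2 fold change was -1.12 ± 0.51 (SE), and -0.49 without PBS 2.

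Egln1 encodes PHD2, the main oxygen sensor of the pathway (chromosome 8, 124908587 to 124949254). It was at 153, 169 and 181 CPM with PBS and at 203, 248 and 180 CPM with Rb2. Rb2 4 fell within the PBS range and Rb2 3 was the highest (log2 fold change 0.33 ± 0.16 SE). Egln3 encodes PHD3, an inducible hydroxylase (chromosome 12, 54178981 to 54203874). It was at 11.3, 19.9 and 7.69 CPM with PBS and at 7.59, 8.12 and 7.58 CPM with Rb2.

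The Rb2 libraries were close to each other in Egln3 and level with PBS 4, while PBS 1 and PBS 2 were higher. The log2 fold change was -0.74 ± 0.32 (SE). It was -0.29 without PBS 2 and -1.02 without PBS 4. Without both PBS 1 and PBS 2 it was 0.02. Per kilobase, Egln1 (46.7 ± 3.88 CPM with PBS and 58.5 ± 9.59 with Rb2) was above Egln3 (4.86 ± 2.35 and 2.92 ± 0.116) in every library.

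**Figure D2:**
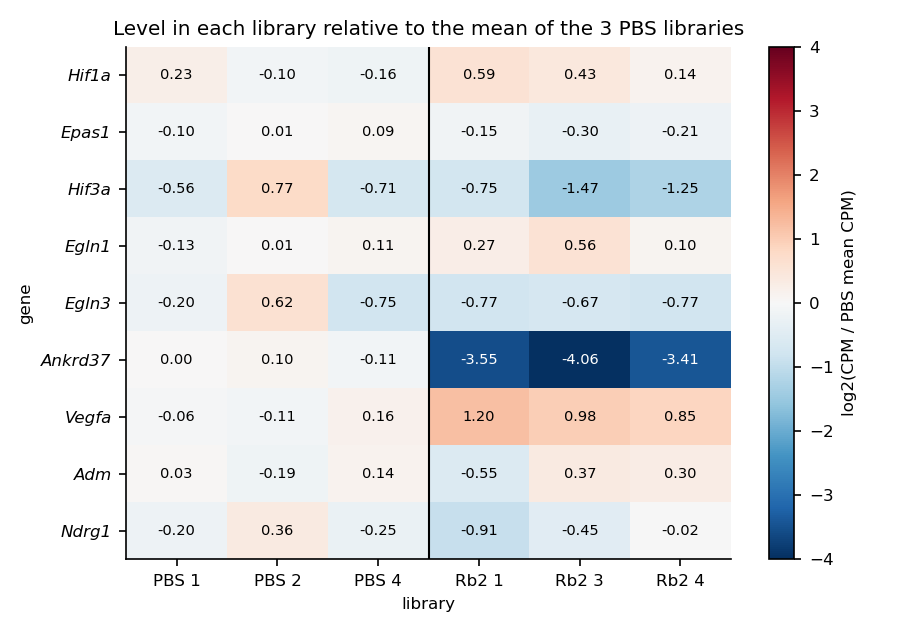
Log2 ratio of each library's CPM to the mean of the 3 PBS libraries for the 9 tested genes (rows) in the 6 libraries (columns), with the PBS libraries left of the line; blue is lower and red higher. Ankrd37 is below -3 and Vegfa above 0.8 in every Rb2 library, while Hif3a, Egln3 and Ndrg1 are raised in PBS 2.

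Ankrd37 encodes a small ankyrin-repeat protein and is a textbook target of hypoxia-inducible factor 1 (chromosome 8, 45996908 to 46000414). It had 214, 273 and 239 reads in PBS 1, 2 and 4 and 19, 13 and 23 reads in Rb2 1, 3 and 4. In CPM these were 2.64, 2.82 and 2.44 against 0.224, 0.158 and 0.249. The lowest PBS library was far above the highest Rb2 library, and both groups were tight. PBS 4 has few muscle transcripts, and its levels over all genes correlated with the Rb2 libraries as closely as with the PBS libraries. For Ankrd37 it sat with the other PBS libraries. This is 1 library, and the part of muscle RNA in the Ankrd37 values was not tested. The log2 fold change was -3.64 ± 0.29 (SE).

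With each library left out in turn it ran from -3.78 to -3.47, given as a range only, since this difference chose the set. The exons of Ankrd37 share 57 bases with Ufsp2 and 349 with Lrp2bp on the other strand, and the sources used here do not say whether the counting used strand. Ufsp2, a protease of the UFM1 modifier, is far more abundant than Ankrd37. It was at 20.9, 19.5 and 20.5 CPM with PBS and at 24.0, 25.6 and 26.0 CPM with Rb2 (log2 fold change 0.31, edgeR adjusted p = 0.103), the opposite direction to Ankrd37. Lrp2bp was at 0.271, 0.538 and 0.0613 CPM with PBS and at 0.0708, 0.0727 and 0.0648 CPM with Rb2. PBS 1 and PBS 2 were higher, as for Ankrd37, and PBS 4 was level with the Rb2 libraries, unlike for Ankrd37. The part of Lrp2bp reads in the Ankrd37 counts was not tested.

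The 3 tested genes with a mean of at least 1 CPM whose log2 levels followed Ankrd37 most closely over the 6 libraries were Magi1 (Pearson r = 0.998), Nxn (0.997) and Cep112 (0.996). Nxn, nucleoredoxin, was at 17.2, 18.8 and 18.6 CPM with PBS and at 6.74, 6.73 and 7.01 CPM with Rb2. Magi1, a scaffold of cell junctions, was at 14.3, 14.0 and 14.0 against 6.81, 6.10 and 6.88 CPM. Cep112 had a smaller step, from 1.27, 1.26 and 1.27 to 0.815, 0.788 and 0.778 CPM, and did not pass the threshold (edgeR adjusted p = 0.105). Over 6 libraries such an r follows mainly from the step between the groups.

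Vegfa encodes vascular endothelial growth factor A, the principal signal for capillary growth (chromosome 17, 46016993 to 46032377). It was at 95.1, 91.3 and 110 CPM in PBS 1, 2 and 4 and at 228, 195 and 179 CPM in Rb2 1, 3 and 4. All Rb2 libraries were above all PBS libraries, with Rb2 1 the highest. The log2 fold change was 1.02 ± 0.15 (SE) and ran from 0.92 to 1.09 with each library left out in turn. Per kilobase Vegfa went from 28.6 ± 2.89 to 58.1 ± 7.22 CPM, in PBS below Egln1 and in Rb2 level with it within their SDs. The ligand was higher while Flt1, a receptor gene counted among the vessel genes, was lower. Kdr, another receptor gene of this ligand, was not called (log2 fold change -0.38, edgeR adjusted p = 0.255), and its groups overlapped.

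Adm encodes adrenomedullin, a vasodilator peptide (chromosome 7, 110627657 to 110629820). It was at 1.96, 1.69 and 2.11 CPM with PBS and at 1.31, 2.48 and 2.37 CPM with Rb2. Rb2 1 was the lowest of all libraries and Rb2 3 the highest, and the log2 fold change (0.10 ± 0.28 SE) changed sign with single libraries left out (-0.06 without Rb2 3, 0.34 without Rb2 1). Ndrg1 encodes a stress-responsive protein tied to differentiation and lipid handling (chromosome 15, 66929318 to 66969641). It was at 49.7, 73.3 and 47.8 CPM with PBS and at 30.3, 41.7 and 56.1 CPM with Rb2. Rb2 4 lay above PBS 1 and PBS 4 (log2 fold change -0.42 ± 0.25 SE, and -0.20 without PBS 2).

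Car9 encodes carbonic anhydrase 9, a cell-surface enzyme of pH control and a standard hypoxia marker (chromosome 4, 43507026 to 43513729). It had 15 reads, or 0.155 CPM, in PBS 2 and 0 reads in the other 5 libraries, and did not pass the filter on low counts. A count of 0 allows up to 3 reads, between 0.0307 and 0.0370 CPM in those libraries, for counting error only.

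PBS 2 was the highest of the 6 libraries for 5 of the 10 genes, Hif3a, Egln3, Ankrd37, Car9 and Ndrg1. PBS 2 was 2.65 times the mean of PBS 1 and PBS 4 for Hif3a, 2.10 times for Egln3, 1.50 times for Ndrg1 and 1.11 times for Ankrd37. It was also the library with the most muscle transcripts, 0.784% of its counts for the 12 markers, against 0.240% in PBS 1 and at most 0.0469% in the other 4. None of the 12 passed the edgeR threshold or had an unadjusted p under 0.05 (1 passed in DESeq2 and none in limma-voom). The defining markers Ckm and Myh4 were at 0 reads in Rb2 1. With the muscle markers as a covariate the log2 fold changes were -0.84 for Hif3a, -0.37 for Egln3, -0.23 for Ndrg1, -3.61 for Ankrd37 and 0.92 for Vegfa.

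**Figure D3:**
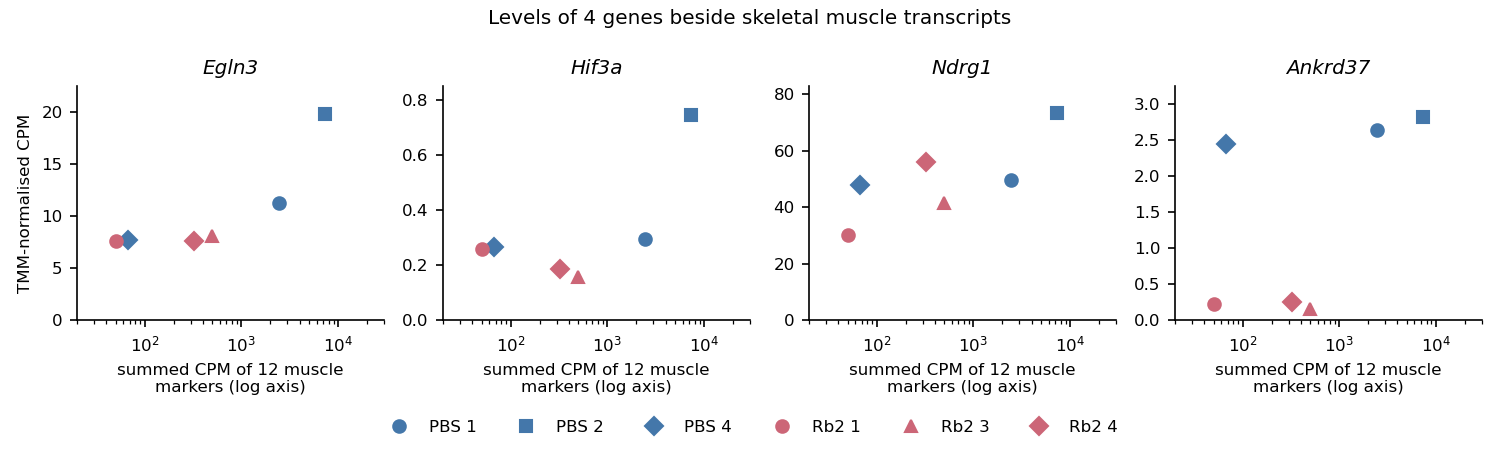
CPM of Egln3, Hif3a, Ndrg1 and Ankrd37 (y axes from 0) against the summed CPM of 12 skeletal muscle markers (log x axis), 1 point per library, PBS in blue and Rb2 in red. PBS 2, at 7362 CPM of muscle markers, is the highest point in each panel. For Ankrd37, PBS 4, at 67.6 CPM, stays near the other PBS libraries. The part of muscle RNA in these levels was not tested.

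The other genes of the pathway were taken from 7 lists of 85 genes, of which 83 were tested. Of these, 5 rose and 8 fell, 15.7% in all, where 10.4% of all tested genes were called (5.33% higher and 5.11% lower). The lists were chosen with earlier results of these data known, so nothing is read from that share. The median log2 fold change over the 83 was -0.18, beside -0.01 over all tested genes. The lists went in both directions, as the 10 genes did.

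Among 18 regulators of the factors 1 rose and 1 fell (median -0.11). Siah2, a ubiquitin ligase that degrades prolyl hydroxylases, fell from 11.0 ± 2.29 to 4.62 ± 0.423 CPM after Rb2 (log2 fold change -1.25 ± 0.18 SE, edgeR adjusted p = 0.00673). Cul2, the cullin scaffold of the VHL ligase, rose from 23.3 ± 2.18 to 35.1 ± 5.81 CPM (0.59 ± 0.15 SE, adjusted p = 0.0390). Siah2 kept its call in all 6 fits with a library left out, and Cul2 in 1, that without Rb2 4 (0.72), with adjusted p up to 0.129 in the others. Cul2 also lost its call with library size alone, with the GC and length offset and with the muscle covariate. The partner subunit gene Arnt and the VHL gene itself did not pass, at log2 fold changes of 0.33 and -0.11.

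None of the 19 genes of glucose transport, glycolysis and lactate passed in edgeR, where 5 had an unadjusted p under 0.05. DESeq2 called 4 of them and limma-voom 0. Their median log2 fold change was -0.25. The smallest p were those of Pfkfb4, a regulator of glycolytic flux (-0.68 ± 0.21 SE, adjusted p = 0.0680), and of Slc2a1, the basal glucose transporter (-0.49 ± 0.17 SE, adjusted p = 0.0858, and 0.0321 without Rb2 4). Slc16a3, the lactate exporter MCT4, was named after its values were seen. It had the lowest log2 fold change of all lists (-2.68 ± 0.95 SE, adjusted p = 0.135) and followed the muscle markers: 2.05, 6.16 and 0.613 CPM with PBS and 0.236, 0.715 and 0.421 CPM with Rb2.

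Of 8 genes of mitochondria, mitophagy and redox control 1 rose and 2 fell (median -0.36). Bnip3, a mitophagy receptor and a strong hypoxia target, rose from 172 ± 29.7 to 328 ± 35.2 CPM (0.93 ± 0.17 SE, adjusted p = 0.0130). Its paralogue Bnip3l did not pass (0.25). Cox4i2, the cytochrome oxidase subunit isoform used at low oxygen, fell from 5.27 ± 0.262 to 2.48 ± 0.549 CPM (-1.09 ± 0.21 SE, adjusted p = 0.0151). Ndufa4l2, a hypoxia-induced relative of a respiratory chain subunit, fell from 11.8 ± 0.572 to 7.26 ± 1.48 CPM (-0.70 ± 0.16 SE, adjusted p = 0.0304). Bnip3 missed the threshold without PBS 2 (adjusted p = 0.0623), Cox4i2 without PBS 1, PBS 2, Rb2 1 or Rb2 3 (up to 0.0642), and Ndufa4l2 in every such fit but that without Rb2 4 (up to 0.102), with the GC and length offset and with the muscle covariate. Cox4i2 and Ndufa4l2 are known as markers of mural cells. In the mural cell list 1 of 8 markers fell, where 5.11% of all tested genes did. The sum of that list ran from 818 to 841 CPM with PBS and from 664 to 735 CPM with Rb2. The part of mural cell RNA in their fall was not tested.

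Of 14 genes of transcription, chromatin and growth control 2 rose and 1 fell (median 0.08). Bhlhe41, a repressor that is also part of the circadian clock and was known to differ here, rose from 2.76 ± 0.203 to 17.2 ± 7.50 CPM (2.64 ± 0.31 SE, adjusted p = 0.00613). Each of the 6 fits with a library left out called it, which is a description only, since it was known to differ. Zfp395, a transcription factor, rose from 12.5 ± 1.08 to 21.5 ± 2.76 CPM (0.78 ± 0.14 SE, adjusted p = 0.0125). Wsb1, a ubiquitin ligase subunit, fell from 11.2 ± 0.482 to 7.02 ± 1.27 CPM (-0.68 ± 0.16 SE, adjusted p = 0.0305). Zfp395 missed the threshold without PBS 1 or PBS 2 (up to 0.0632), and Wsb1 in every such fit but that without Rb2 4 (up to 0.0912). Ddit4, an mTOR inhibitor named after its values were seen, was at 42.1, 30.8 and 54.1 CPM with PBS and at 20.7, 8.14 and 12.3 CPM with Rb2, with no overlap and an adjusted p of 0.0542.

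Of 10 tested genes of vessels, iron and red cells 3 fell and none rose (median -0.70). Pdgfb, the growth factor with which endothelial cells recruit mural cells, fell from 90.0 ± 7.75 to 29.7 ± 8.03 CPM (-1.60 ± 0.19 SE, adjusted p = 0.00362). Each of the 6 fits with a library left out called it. Cxcl12, a chemokine of stroma and endothelium, fell from 212 ± 20.4 to 108 ± 23.5 CPM (-0.98 ± 0.18 SE, adjusted p = 0.0126). Flt1, the VEGF receptor 1, fell from 267 ± 21.2 to 176 ± 17.5 CPM (-0.60 ± 0.14 SE, adjusted p = 0.0310). Cxcl12 missed the threshold without PBS 1, PBS 2 or Rb2 3 (up to 0.0654), and Flt1 without PBS 1, PBS 2, Rb2 1 or Rb2 3 (up to 0.133), with the GC and length offset and with the muscle covariate. Flt1 is also 1 of the 14 endothelial markers, 7 of which fell, with a median of -0.70 (5 called with the GC and length offset and 6 with the muscle covariate). The part of endothelial RNA in the fall of Pdgfb, Cxcl12 and Flt1 was not tested. Of 5 red cell markers 4 fell, where 5.11% of all tested genes did. The sum of the 5 ran from 1036 to 1451 CPM with PBS and from 479 to 793 CPM with Rb2. With the GC and length offset 2 of the red cell markers were called, and with the muscle covariate 1. Epo, the red cell growth factor, had 0 reads in all 6 libraries.

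None of the 6 genes of collagen modification passed in edgeR (2 with an unadjusted p under 0.05, 2 called by DESeq2, 0 by limma-voom; median 0.03). The smallest p were those of Loxl2, a collagen cross-linking oxidase (-0.43 ± 0.14 SE, adjusted p = 0.0787), and Plod2, a collagen lysyl hydroxylase (-0.71 ± 0.25 SE, adjusted p = 0.0903, and 0.0247 without PBS 4). Of 8 tested genes of lipid, glycogen and pH 1 rose and 1 fell (median -0.04). Vldlr, a lipoprotein receptor, rose from 86.8 ± 2.31 to 161 ± 46.8 CPM (0.89 ± 0.20 SE, adjusted p = 0.0247). Plin2, a lipid droplet coat protein, fell from 667 ± 69.6 to 378 ± 103 CPM (-0.82 ± 0.21 SE, adjusted p = 0.0387). Vldlr kept its call in 1 of the 6 fits, without Rb2 4, and Plin2 in 2, without Rb2 3 or Rb2 4, with adjusted p up to 0.0979 and 0.130 in the others. Neither passed with the muscle covariate, and Plin2 did not with the GC and length offset.

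**Figure D4:**
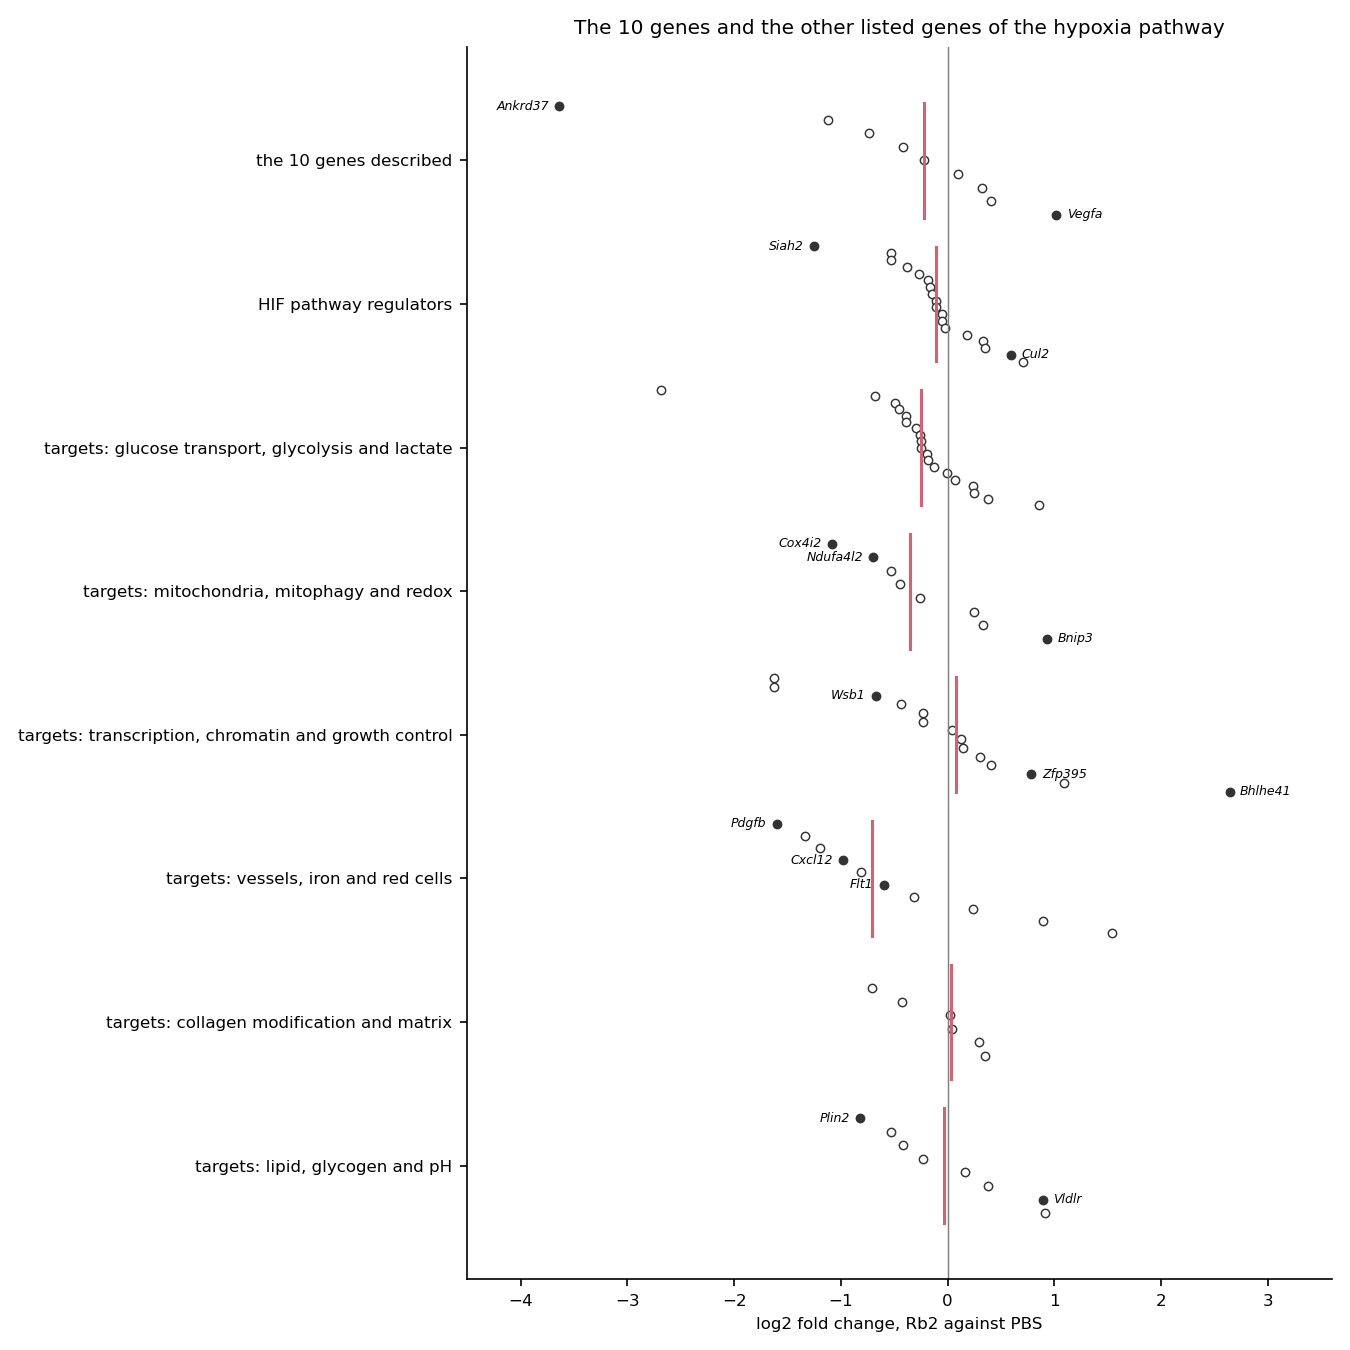
Log2 fold change (Rb2 against PBS) of each tested gene of the 10 genes described and of the 7 lists of other hypoxia pathway genes; filled and named points passed the adjusted threshold, open points did not, and red bars give each list's median. Called genes lie on both sides of 0 in 4 of the 7 lists, and among the called genes the largest differences are the low Ankrd37 and the high Bhlhe41. The 10 genes were chosen with this contrast in view, so their fill is a description only.

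**Figure D5:**
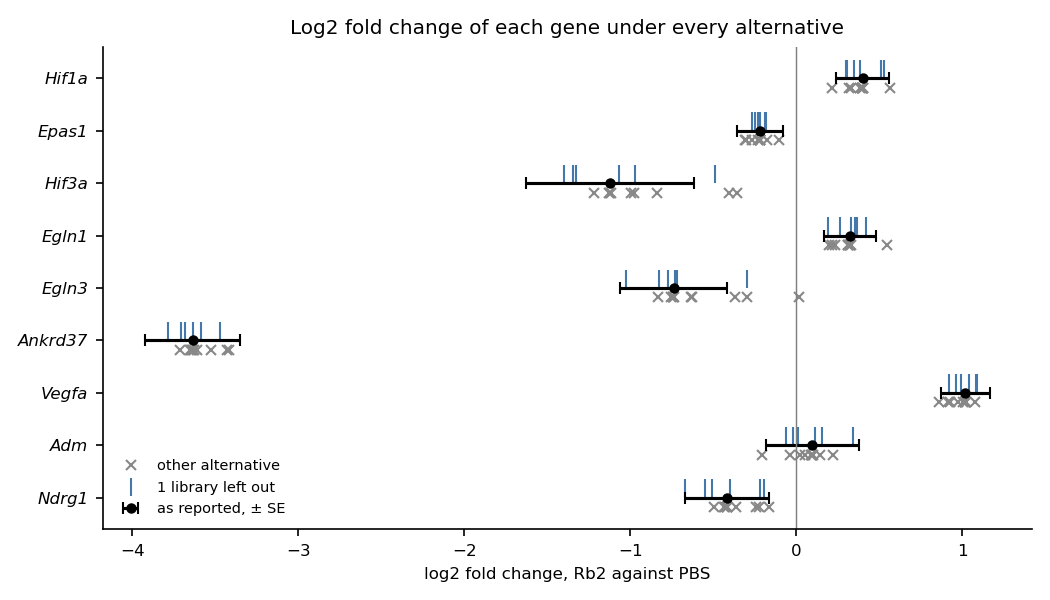
Log2 fold change of the 9 tested genes as reported (black, ± SE), with each library left out (blue ticks) and under the other alternatives (grey crosses). Ankrd37 stays between -3.78 and -3.42 and Vegfa between 0.86 and 1.09, while Egln3 runs from -1.02 to 0.02 and Adm from -0.20 to 0.34.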

How the data were processed

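Brown fat mRNA of 3 PBS and 3 Rb2 mice was sequenced from poly(A)-selected, strand-marking libraries, per the labels' protocols. The authors deposited whole-number read counts per gene, not normalized. Trimmomatic, HISAT2, Bowtie2, StringTie and mm10 are named per the submitters' processing notes; the sources used here do not give their roles and versions, the counting program or its strand setting. The numbers in the column names do not match those of the sample titles. That the 3 samples of a group are separate mice comes from the series' design text.

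Genes were tested with edgeR 4.0.16 (R 4.3.3; quasi-likelihood F test, TMM, robust dispersions, a count minimum of 10 and a total of at least 15), with Benjamini-Hochberg adjustment over 16707 genes and a threshold of 0.05. SE was taken from the log2 fold change and F (their ratio with F under the root). Alternatives used DESeq2 1.42.0, limma 3.58.1, other scalings, filters and covariates, and each library left out. GC content and length came from the longest GENCODE M21 transcript (94.4% of tested genes), positions from RefSeq GRCm38.p6. All list genes matched by symbol. Of these steps, only the edgeR test was also run on simulated counts.

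The 10 genes and the lists were chosen with earlier results of these data known. By rule, named genes were the 10, the 3 genes most like Ankrd37 and genes overlapping any of the 10. From each list they were up to 4 called genes with the smallest p, or the 2 with the smallest p where none was called. Arnt, Vhl, Bnip3l, Epo and single marker genes were named outside this rule. Slc16a3, Ddit4 and Kdr were named after their values were seen. Marker lists covered brown adipocytes, endothelial, mural and muscle cells, macrophages, red cells, and fibroblasts and progenitors. Of 8 macrophage markers 3 fell in edgeR, where 5.11% of all tested genes did, and 3 had an unadjusted p under 0.05. With the GC and length offset or the muscle covariate edgeR called 0 of them, while DESeq2 called 3 and limma-voom 2. Of 8 fibroblast and progenitor markers 0 were called in edgeR (5 with an unadjusted p under 0.05), 5 in DESeq2 and 0 in limma-voom.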

Additional observations from a re-analysis of the deposited data

How the results depend on the processing

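Over all genes, 1743 passed the threshold as reported, 3309 in the DESeq2 Wald test, 918 with the muscle markers as a covariate, and 303 to 2269 with 1 library left out (334 without PBS 1, 303 without PBS 2, 548 without Rb2 1, 601 without Rb2 3). Of the genes described, 2 passed as reported and 2 to 3 with 1 library left out. Since this contrast chose the genes described, nothing is read from their counts. In the pathway lists 13 passed as reported, 29 in DESeq2 and 3 to 20 with 1 library left out (4 without PBS 1, 3 without PBS 2, 7 without Rb2 1, 6 without Rb2 3, 20 without Rb2 4). Without both PBS 1 and PBS 2, a fit that assumes the lone PBS library to vary like the Rb2 libraries, 0 genes passed in any of these sets in edgeR (2063 with an unadjusted p under 0.05 over all genes), while Ankrd37 stood at -3.53 and Vegfa at 0.86. A replicate block on the column numbers 1 and 4 that both groups carry left 96 genes. Among them were 1 of the genes described (Ankrd37 at -3.42, while Vegfa was at 0.98 and not called) and 2 pathway genes. Deviations of same-numbered libraries from their group means had a Pearson r across genes of -0.139 and -0.151. With 2 shared numbers, these values cannot show whether the numbers mark pairs. Fewer libraries or residual degrees of freedom can lower the power of a fit. Among the fits with 1 library left out the count over all genes also depended on which library it was. It was 1564 without PBS 4 and 2269 without Rb2 4, beside the lower counts above. The causes of these differences were not tested. The depth limits Hif3a, Car9 and Ankrd37 after Rb2, which rest on at most 72 reads per library.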
